A study of Mus musculus with 4 samples.

Results

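The genes described here encode 8 proteins that mouse salivary glands secrete into saliva: Bpifa2, Smr3a, Pip, Chia1, Amy1, Dcpp1, Dcpp2 and Dcpp3. They were taken by symbol from a table of 14159 genes, and all 8 were found. They had been picked because they were far higher in tumours with a knockout of Kdm4a than in control tumours, so that difference is given as a description and is not tested. RNA was sequenced from primary squamous cell carcinomas of mice that were not cultured. There were 2 libraries of the genotype control and 2 of the genotype KDM4A knockout, the latter made in an inducible manner. No source used here gives the strain, age, tumour site, inducer or Cre driver, nor whether libraries come from separate animals, so p-values measure only the spread between these libraries, which may be technical. Both control columns carry 1 name and are called control libraries a and b.

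Saliva is made by acinar cells, which package proteins into granules and release them on nerve stimulation, and is modified by duct cells on its way to the mouth. The parotid, submandibular and sublingual glands and the small glands under the lining of the mouth and tongue differ in which proteins they make. Each of the genes described here is known as a product of gland cells. Amy1 encodes salivary amylase, which digests starch, and Chia1 encodes acidic mammalian chitinase, which the mouse stomach, lung and salivary glands secrete. Bpifa2 encodes parotid secretory protein, a lipid-binding member of the BPI-fold family. Smr3a encodes a small submaxillary gland protein named for its regulation by androgen, and Pip encodes prolactin-inducible protein of saliva and other exocrine fluids. The Dcpp genes encode demilune cell and parotid proteins, demilunes being caps of serous cells on mucous acini.

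Levels are FPKM, which scale fragments to transcript length and to 1e6 mapped fragments, and depth is unknown. The columns summed to between 592281 and 626719 FPKM. Kdm4a, the targeted gene, was at 29.6 and 27.7 FPKM in control, against 14.9 and 14.7 in knockout. Squamous epithelium markers were abundant in all 4 libraries, with a summed level of 4671 to 8189 FPKM over 15 genes. Control library a stood apart in 13 pancreatic digestive enzyme genes, picked from a list of other exocrine glands after the values were seen. These summed to 703 FPKM in control library a and to 1.94 in control library b, 1.48 in knockout library 1 and 3.13 in knockout library 2. The controls also differed in the 8 secretory genes, which summed to 7.07 FPKM in control library a and to 38.1 in b. Values without control library a are therefore given beside the 7 secretory genes tested and wherever leaving it out ended a call named here.

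The 8 genes lie on 5 chromosomes, and only the Dcpp genes form a cluster, within 38.8 kb of chromosome 17. Promoters in RefSeq on GRCm38.p6 were matched for all 8, with 2 start sites for Amy1. The annotated spans of Smr3a, Dcpp1 and Dcpp3 begin before their matched start sites, at chr5:87991555, chr17:23880669 and chr17:23917419. The 60 bases before the start site are printed because these genes moved together across the libraries; capitals mark the letters TATAA, searched on both strands, where matches can overlap. Written 5′ to 3′ on the strand of the gene, they come from chr2:154008216-154008275 for Bpifa2, chr5:88002465-88002524 for Smr3a, chr6:41847489-41847548 for Pip, chr3:106113322-106113381 for Chia1, and chr3:113577751-113577810 on the minus strand for the upstream start of Amy1. Those of the Dcpp genes come from chr17:23880816-23880875 for Dcpp1, chr17:23898662-23898721 for Dcpp2 and chr17:23917398-23917457 for Dcpp3, all on the plus strand like the first 4.
Bpifa2: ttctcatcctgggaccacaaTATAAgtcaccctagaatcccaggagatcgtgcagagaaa
Smr3a: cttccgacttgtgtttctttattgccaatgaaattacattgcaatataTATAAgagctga
Pip: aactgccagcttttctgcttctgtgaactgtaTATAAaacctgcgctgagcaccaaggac
Chia1: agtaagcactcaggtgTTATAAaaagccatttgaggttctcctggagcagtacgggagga
Amy1: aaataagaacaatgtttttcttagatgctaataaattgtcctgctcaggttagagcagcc
Dcpp1: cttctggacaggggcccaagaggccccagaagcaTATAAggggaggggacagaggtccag
Dcpp2: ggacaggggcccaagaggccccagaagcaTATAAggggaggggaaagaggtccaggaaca
Dcpp3: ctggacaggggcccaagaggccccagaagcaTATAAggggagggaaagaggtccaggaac

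The letters TATAA occurred in this window at 7 of the 9 start sites, in 7 of the 8 genes, and at 7.24% of 32851 mouse promoters. They were in neither Amy1 window, which says only that these letters are not there. On the strand of the gene, the first base of the match lay at -40 for Bpifa2, -28 for Pip and -43 for Chia1. It lay at -26, -31 and -29 for Dcpp1, Dcpp2 and Dcpp3, and nearest the start site, at -12, for Smr3a. The Dcpp matches lie in 1 shared stretch, so the 7 matches are not independent. The hexamer CAGCTG, an E-box, was in the 250 bases before none of the 9 start sites and in 13.001% of all promoters. The Dcpp promoters were close copies of each other: over 250 bases Dcpp1 and Dcpp2 were 93.3% identical, Dcpp1 and Dcpp3 94.9%, and Dcpp2 and Dcpp3 96.4%.

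All 8 genes were higher in both knockout libraries than in either control library, an order that held for 39.2% of the genes in the table. Since the genes were picked from that contrast, nothing is read from the count. Their summed level was 7.07 FPKM in control library a, 38.1 in control library b, 5028 in knockout library 1 and 1105 in knockout library 2. These sums were 0.00116%, 0.00608%, 0.849% and 0.184% of all FPKM in the column. The libraries of each group were therefore far apart, and library 1 held the most of this RNA. In RNA of whole tumours, fewer cells of a type and less RNA per cell cannot be told apart.

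**Figure D1:**
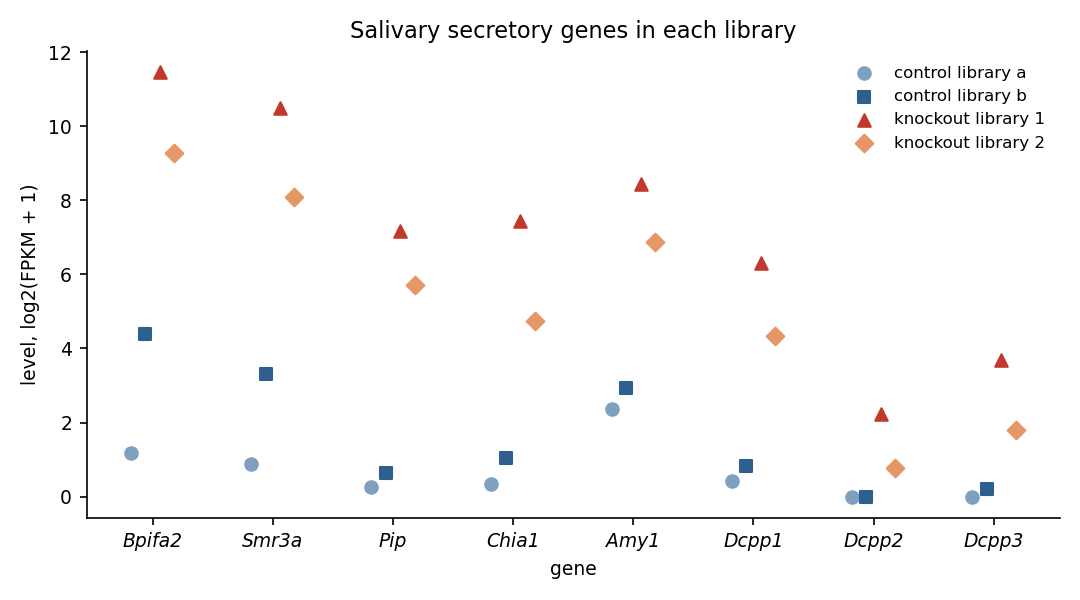
Level of each of the 8 genes as log2(FPKM + 1) in control libraries a and b and knockout libraries 1 and 2, 1 point for each library. For every gene knockout library 1 is the highest, as for Bpifa2 at 2831 FPKM, knockout library 2 is next and both control libraries lie below.

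Of the digestive enzymes, the amylase gene Amy1 was the only one of the 8 above 4 FPKM in both control libraries. It stood at 4.15 FPKM in control library a, 6.68 in control library b, 349 in knockout library 1 and 116 in knockout library 2. The lower knockout value was 17.3 times the higher control value. On the log2(FPKM + 1) scale, used for every log2 difference here, knockout minus control was 5.01 (limma SE 0.54), and 4.72 without control library a. The chitinase gene Chia1 was at 0.273 and 1.06 FPKM in control, against 172 and 25.7 in knockout. Chia1 had the widest gap between the knockout libraries, 6.72 times higher in library 1, and a log2 difference between groups of 5.39 (SE 0.89; 5.04 without control library a).

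Amy1 has relatives expressed in the pancreas, and control library a carried pancreatic transcripts. Amy2b, whose symbol belongs to an unprocessed pseudogene in GENCODE M21, was at 2.32 FPKM in control library a, 0.065 in b, 0.0606 in knockout library 1 and 0 in knockout library 2. Of the 50-base stretches of the Amy1 transcript, 2.63% occurred in that of Amy2b and 1.76% in that of the pancreatic amylase gene Amy2a5. The part of shared reads in its control level was not tested.

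Bpifa2 and Smr3a were the most abundant of the 8 in knockout. Bpifa2 stood at 1.27 FPKM in control library a, 19.9 in control library b, 2831 in knockout library 1 and 619 in knockout library 2. It ranked 15 among the 14159 genes in knockout library 1 and 149 in library 2, against 11361 and 4465 in control libraries a and b. Smr3a was at 0.838 and 8.91 FPKM in control, against 1438 and 271 in knockout, ranking 59 and 304 in the knockout libraries. Apart from Dcpp3, listed at 0 in 1 control, these had the widest gaps between the controls: control library b exceeded a by 15.7 times for Bpifa2 and by 10.6 times for Smr3a. The log2 difference between groups was 7.59 for Bpifa2 (SE 1.24; 5.98 without control library a, 9.19 without b). For Smr3a it was 7.19 (SE 1.09; 5.98 and 8.41). The lower knockout value was still 31.0 times the higher control value for Bpifa2 and 30.4 times for Smr3a.

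Pip showed the cleanest separation of the groups. It was at 0.201 FPKM in control library a, 0.557 in b, 143 in knockout library 1 and 51.7 in library 2, so that the lower knockout value was 92.8 times the higher control value. Its knockout libraries differed by 2.77 times, the smallest ratio among the 8 genes. The log2 difference between groups was 5.99 (SE 0.49; 5.81 without control library a).

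The demilune genes fell in the order Dcpp1, Dcpp3, Dcpp2 in both knockout libraries. Dcpp1 was at 0.334 and 0.778 FPKM in control, against 78.8 and 19.3 in knockout. Dcpp3 was listed at 0 in control library a, at 0.161 in b, and at 12.001 and 2.51 in knockout. Dcpp2 was listed at 0 in both control libraries and at 3.71 and 0.70 in knockout, and of the 8 genes it alone failed the filter of at least 1 FPKM in at least 2 libraries. Knockout library 1 exceeded library 2 by 4.09 times for Dcpp1, 4.78 for Dcpp3 and 5.30 for Dcpp2. The log2 difference between groups was 4.71 for Dcpp1 (SE 0.65) and 2.65 for Dcpp3 (SE 0.61), and 4.50 and 2.54 without control library a.

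Single values of the Dcpp genes are uncertain, since their transcripts can share reads. In GENCODE M21, Dcpp1 and Dcpp3 transcripts were 93.4% identical, Dcpp2 and Dcpp3 91.9%, and Dcpp1 and Dcpp2 89.98%. Of the 50-base stretches of the Dcpp1 transcript, 35.7% occurred unchanged in Dcpp3 and 28.7% in Dcpp2. How the authors' counting split such reads is not given in the sources used here.

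Of the 7 genes that passed the filter, Pip, Dcpp1 and Dcpp3 were under 1 FPKM in both controls and passed through the knockout libraries alone. For these low control values the log2 difference depends on the constant added: with 0.1 in place of 1 that of Pip was 7.60 and that of Dcpp3 5.12, and with 5 they were 4.09 and 1.15.

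The relative amounts of the 8 transcripts were more alike between the knockout libraries than their absolute levels. Read as FPKM, and so per kilobase, Smr3a stood at 50.8% of Bpifa2 in knockout library 1 and at 43.7% in library 2. Chia1 stood at 6.09% and 4.14% of Bpifa2, Dcpp1 at 2.78% and 3.11%, and Dcpp3 at 0.424% and 0.405%. Amy1 and Pip took larger shares in library 2, 18.7% against 12.3% for Amy1 and 8.35% against 5.06% for Pip. In control library b, Smr3a was at 44.6% of Bpifa2, Chia1 at 5.31%, Dcpp1 at 3.90% and Dcpp3 at 0.807%, while Amy1 was at 33.5% and Pip at 2.79%. In control library a, where Bpifa2 itself was at 1.27 FPKM, Amy1 was at 326% of Bpifa2.

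Knockout library 1 was at least 2 times as high as library 2 for all 8 genes, by 2.77 to 6.72 times with a median of 4.68 times. Such a ratio was found for 1.84% of the genes in the table, and the median ratio over all genes tested was 1.03. Among the controls, library b was at least 2 times as high as a for 6 of the 8 genes, against 2.02% of all genes, and higher for 7; Dcpp2 was at 0 in both. With 1 library on each side, these ratios have no replicate check. Markers of muscle and of B and plasma cells had the other order in knockout. Of 21 skeletal muscle markers in the table, 0 were higher in knockout library 1 than in 2, and their summed level was 517 to 649 FPKM in knockout and 506 to 566 in control, with no marker at 0. Of 13 B and plasma cell markers, 0 were higher in library 1, and they summed to 64.0 and 118 FPKM in knockout libraries 1 and 2 and to 38.0 and 47.4 in controls a and b, again with none at 0. The part of these cells in the levels of the secretory genes was not tested.

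**Figure D2:**
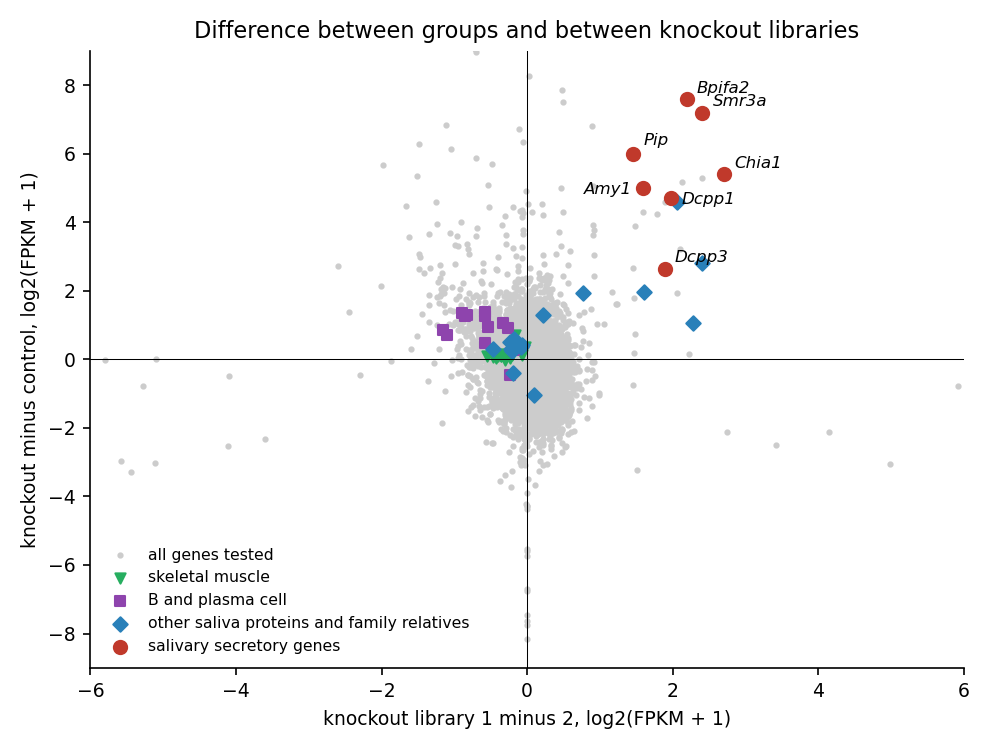
Knockout minus control against knockout library 1 minus library 2, both as differences of log2(FPKM + 1), with 1 point for each gene tested and 26 genes beyond the axes. The 7 secretory genes that passed the filter lie at the upper right, higher in knockout and higher in library 1, while B and plasma cell and skeletal muscle markers lie left of 0 on the horizontal axis.

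Other saliva proteins were examined with a list of further saliva genes and relatives of the 8. Of its 71 symbols 21 were in the table and 15 were tested; the 6 below the filter were not tested, and symbols not in the table were not analysed here. By limma with Benjamini-Hochberg adjustment over all 12046 genes tested and a threshold of 0.05, 9 of the 15 rose, 2 fell and 4 were not called. Over all genes tested 30.1% were called higher and 33.8% lower. The median log2 difference of the list was 0.51, against -0.03 over all genes tested. Without control library a 6 rose and 1 fell.

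The largest rises in this list were of saliva proteins. Cst10, which encodes a cystatin, was listed at 0 in control library a and stood at 0.218 FPKM in b, 52.9 in knockout library 1 and 11.9 in library 2 (log2 difference 4.58, limma adjusted p = 0.00361). Car6, the secreted carbonic anhydrase of saliva, was at 9.03 and 8.60 FPKM in control, against 157 and 28.9 in knockout (2.81, limma adjusted p = 0.0265). Car6 was thus expressed in the controls as well, at like levels in both, and its excess was again larger in knockout library 1. Wfdc12, a whey acidic protein family member, rose by 1.97 (limma adjusted p = 0.024), and the proline-rich protein genes Prpmp5 and Prb1 rose by 1.93 and 1.30 (limma adjusted p = 0.00316 and 0.00125). With robust eBayes the calls on Car6 and Wfdc12 were lost (adjusted p = 0.16 and 0.106). Prb1 differed little between the knockout libraries, at 1.86 and 1.45 FPKM. Cst10, Prpmp5 and Prb1 were under 1 FPKM in both controls and passed the filter through the knockout libraries alone. They could thus be tested only because they were high there, and the count of rises includes them.

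The other 4 calls in this direction were of smaller size. The lysozyme gene Lyz1 rose by 0.51, the lactoferrin gene Ltf by 0.35, the whey acidic protein relative Wfdc18 by 0.41 and the chitinase-like gene Chil3, a product of macrophages, by 0.60 (limma adjusted p = 0.0246, 0.034, 0.0126 and 0.0056). Without control library a, Lyz1, Ltf and Wfdc18 lost the call (adjusted p = 0.116, 0.107 and 0.109); Ltf and Wfdc18 also lost it without control library b (0.275 and 0.123), and Lyz1 and Ltf without knockout library 2 (0.0892 and 0.0735).

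The other tested genes of the list fell or were not called. The BPI-fold genes Bpifb1 and Bpifa5 stood at 10.5 and 9.31, and 3.36 and 4.54 FPKM in control, and differed by 0.30 each (limma adjusted p = 0.0807 and 0.262). The chitinase gene Chit1 was at 5.02 and 4.44 FPKM in control, against 3.09 and 3.68 in knockout, a log2 difference of -0.39 (limma adjusted p = 0.0429). It was no longer called without control a (-0.31), without control b (-0.46) or without knockout library 1 (-0.29). With no filter or quantile normalization its limma adjusted p was 0.06 and 0.0932. Chid1, a chitinase domain gene, fell by 1.06 (adjusted p = 0.00102). The kallikrein gene Klk1, made by both salivary ducts and pancreas, stood at 3.63 FPKM in control library a, 0.244 in b, 10.02 in knockout library 1 and 1.27 in library 2, so the groups overlapped (1.06, limma adjusted p = 0.369). Wfdc2 was at 186 and 192 FPKM in control, against 208 and 241 in knockout (0.24, adjusted p = 0.0618).

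Of 22 listed genes that control acinar cells or move their fluid and granules, 16 were in the table and 10 were tested. Of these 10, 1 rose and 8 fell, with a median log2 difference of -0.85. Over all genes tested 30.1% were called higher and 33.8% lower. Many of the 10 are also expressed outside glands. Xbp1, a transcription factor gene of secretory cells that many cell types express, fell from 54.7 and 55.2 FPKM to 15.4 and 17.6 (-1.68, limma adjusted p = 0.000383). Kcnn4, a potassium channel gene, fell from 64.8 and 69.3 FPKM to 36.6 and 37.2 (-0.84, adjusted p = 0.000715). The granule fusion gene Vamp8 rose from 31.7 and 33.0 FPKM to 59.0 and 61.7 (0.88, adjusted p = 0.000637). Xbp1, Kcnn4 and Vamp8 differed little within the groups. Rab27b, named after its values were seen, is among the 8 falls, at 1.69 and 1.70 FPKM in control, against 0.481 and 0.492 in knockout. It passed the filter through the controls alone. The 6 genes of the list in the table but below the level tested were noted after their values were seen. Bhlha15, Aqp5, Creb3l1, Creb3l4 and Kit were higher in both knockout libraries than in both controls, and Elf5 was not. That order held for 39.2% of all genes in the table, and at such low levels nothing is read from it. The acinar regulator gene Bhlha15 was at 0.277 and 0.165 FPKM in control, against 0.467 and 0.362 in knockout. The water channel gene Aqp5 was listed at 0 in control library a, at 0.0841 in b, 1.15 in knockout library 1 and 0.086 in library 2.

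Of 20 duct and simple epithelium markers listed, 7 were tested, of which 2 rose and 3 fell (median -0.18), beside 30.1% higher and 33.8% lower over all genes tested. Ascl3, a transcription factor gene of salivary duct progenitors, rose from 0.331 and 0.711 FPKM to 3.24 and 3.54 (1.54, limma adjusted p = 0.00132). The keratin gene Krt8 of simple epithelia rose by 0.37 (adjusted p = 0.0117), but without control library a its adjusted p was 0.0815, and the list then had 1 rise and 1 fall; without control library b it had 2 rises and 1 fall. With quantile normalization the adjusted p of Krt8 was 0.0511. Its partner keratin gene Krt18, named after its values were seen, fell by 0.31 (limma adjusted p = 0.0136). This fall was no longer called without control library a or without control library b. Krt7 and Krt19 were below the level tested. Slc4a4, which encodes a bicarbonate transporter of ducts and acini, fell from 2.76 and 2.72 FPKM to 0.111 and 0.198 (-1.70, adjusted p = 0.000511). Slc4a4 was under 1 FPKM in both knockout libraries and passed the filter through the controls alone, and the count of falls includes it. Ascl3 was thus alike in the knockout libraries, where the secretory genes differed by 2.77 to 6.72 times. It was under 1 FPKM in both controls, so it could be tested only because it was high in knockout. Of 4 myoepithelial markers tested, which smooth muscle shares, 0 rose and 1 fell: Cald1 fell by 0.73 (adjusted p = 0.00267), while Acta2 and Tagln differed by 0.22 and 0.50 (adjusted p = 0.33 and 0.0732).

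Cells other than gland cells were followed with 3 further lists, to be read beside the 30.1% of all genes tested that were called higher and the 33.8% called lower. Of 13 B and plasma cell markers tested, 8 rose and 1 fell (median 0.94). The B cell receptor subunit gene Cd79b rose by 1.39, the complement receptor gene Cr2 by 1.06 and the B cell factor gene Pax5 by 1.26. Cr2 and Pax5 were under 1 FPKM in both controls, so they passed the filter through the knockout libraries alone. The plasma cell factor gene Prdm1 fell by 0.45. Prdm1 lost the call without control a (limma adjusted p = 0.10008), without control b (0.155) and with quantile normalization (0.0746). Of 20 skeletal muscle markers tested, 1 rose, the muscle enolase gene Eno3 (0.71, limma adjusted p = 0.00395), and 5 rose without knockout library 1. Of 14 squamous markers tested, 1 rose and 10 fell (median -0.67), among them the integrin genes Itga6 (-1.81) and Itgb4 (-1.08) and the desmosome gene Dsc3 (-0.78), while the cornified envelope gene Sprr1b rose by 0.49, a call that was lost without control b (limma adjusted p = 0.0949).

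**Figure D3:**
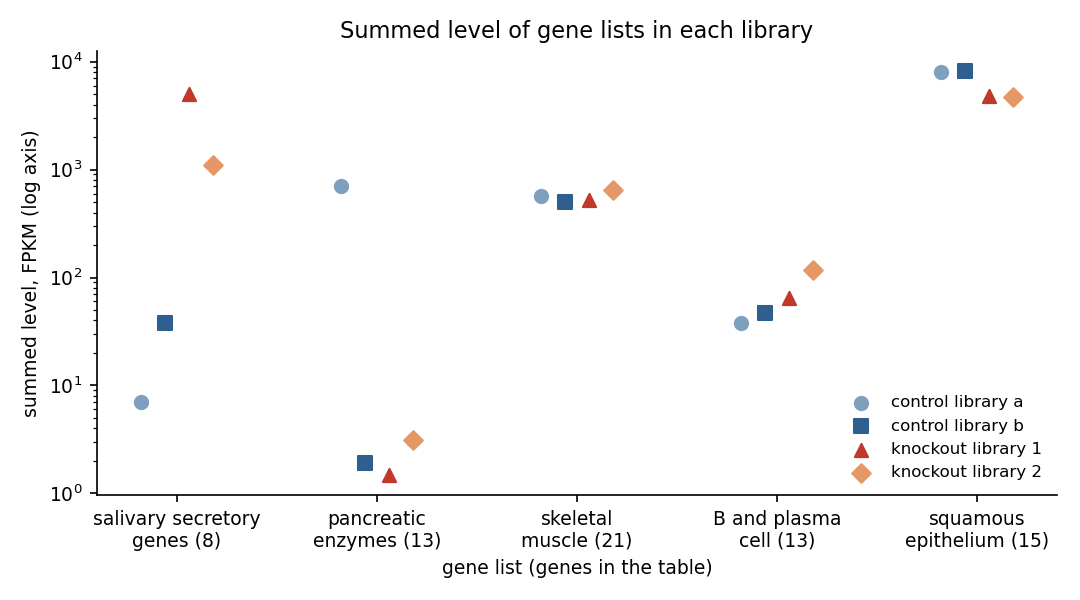
Summed FPKM of 5 gene sets in each library, on a log axis, with 1 point for each library and the number of genes in the table in brackets. The secretory genes range from 7.07 to 5028 FPKM, the pancreatic enzymes are high in control library a alone at 703 FPKM, and the skeletal muscle markers lie between 506 and 649 FPKM.

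The genes most like the 8 in pattern were sought among all others with a mean of at least 1 FPKM, leaving out symbols that begin with Mir, Snor or Gm or end with Rik. Likeness was the Euclidean distance, over the 4 libraries, between a gene's log2(FPKM + 1) values centred on their own mean and the mean centred profile of the 8. Distances of the 8 themselves ran from 0.39 for Amy1 to 3.59 for Dcpp2. As the contrast between groups is part of the measure, these genes are described without a test. The nearest was BC037156 at 0.43, listed by RefSeq with the synonym FDC-SP, which was at 0 and 1.84 FPKM in control, against 127 and 28.3 in knockout. Next came Cst10 at 0.66 and the secreted nuclease gene Dnase1 at 0.95, which was at 0.712 and 0.481 FPKM in control, against 72.5 and 18.7 in knockout. Scgb1b27, which encodes an androgen-binding protein subunit of mouse saliva, followed at 1.02, listed at 0 in both controls and at 33.3 and 10.4 FPKM in knockout. The next 5, at 1.70 to 2.01, were Hspa1b, Utp14b, Hspa1a, Eif3j2 and Scarna3b, in which knockout library 1 was between 0.716 and 1.37 times library 2. Crisp1, a secretory protein gene known from the epididymis, closed the 10 at 2.02, with 25.1 and 5.07 FPKM in knockout.

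A joint pattern was counted over all genes. At least 2 FPKM in knockout library 1, at least 2 times the level of library 2, and library 2 above both controls held for 33 genes, 0.233% of the table; the thresholds were set after the values were seen and take in all 8 secretory genes. Of the other 25 genes, 6 were micro, small nucleolar or small Cajal body RNAs and 19 were not. Of those 19, Car6, Cst10, Wfdc12, Prpmp5 and Lpo were in the list of further saliva genes. Lpo, which encodes lactoperoxidase, was below the level tested, at 0.0431 and 0.0596 FPKM in control, against 3.28 and 0.491 in knockout. The list as a whole did not follow this order: 10 of its 21 genes in the table were higher in knockout library 1 than in 2. Of others below the level tested, named after their values were seen, Prh1 was at 0.0859 and 2.38 FPKM in knockout libraries 1 and 2. Dmbt1 was at 2.73 and 0.611 FPKM in control, against 0.621 and 0.754 in knockout. Scgb2b27, a partner subunit of the androgen-binding protein, was at 0.831 and 1.35 FPKM in control, against 15.1 and 2.86 in knockout. The gene 2310057J18Rik, with the RefSeq synonym Leg1, was at 3.003 and 3.74 FPKM in control, against 150 and 42.8 in knockout.

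**Figure D4:**
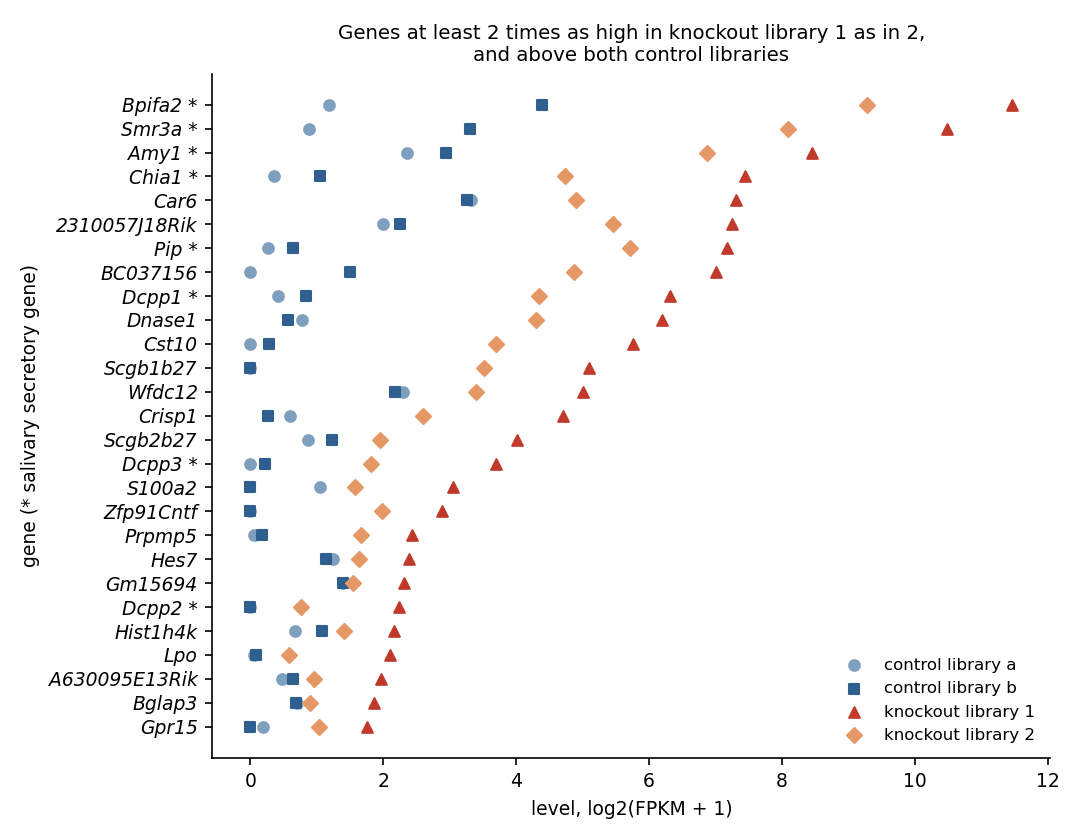
Level as log2(FPKM + 1) in each library, 1 point for each library, for the 27 genes of the joint pattern other than small RNAs, ordered by knockout library 1, with asterisks on the 8 secretory genes. Points for knockout library 1 lie to the right of those for library 2 in every row because the pattern requires it; Bpifa2, Smr3a and Amy1 are the most abundant.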

How the data were processed

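Per the labels' protocols, Trizol RNA was purified with Dynabeads and made into libraries with a stranded Kapa kit. TopHat, Cufflinks and build mm9 are named, per the submitters' processing notes, with versions, annotation and strand setting not given in the sources used here. Deposited values were read as FPKM made by the authors, although their sheet is named for CPM. Levels were nearly unrelated to transcript length (Spearman correlation -0.084 to 0.014 over 13634 genes). Column sums stayed below 1e6, which does not tell the units apart if genes were left out of the table. Depth is unknown, so no counting interval is given, and an exact 0 can be a failed estimate.

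The 12046 genes that reached 1 FPKM in 2 or more libraries were fitted as log2(FPKM + 1) with limma 3.58.1 in R 4.3.3 (eBayes with a trend, two-sided, Benjamini-Hochberg adjustment, threshold 0.05, 2 residual and 2.93 prior degrees of freedom). The design was written for either Cufflinks or per-million values. An exact permutation test of 2 against 2 libraries cannot go below 0.333 and was not used. The fit was tested on simulated data. Genes were named by a rule: the 8 genes and Kdm4a, every tested gene of the list of further saliva genes, the 3 genes with the smallest p of each other list with any called gene that moved against the majority of its list, and the 10 nearest in pattern; other genes are said to be chosen after their values were seen. The genes and lists were chosen with earlier results of these data known. Sequences are from RefSeq (GRCm38.p6) and GENCODE M21 (GRCm38) and not from mm9. Alternatives were other pseudocounts and filters, quantile normalization, robust eBayes and leaving out each library.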

Additional observations from a re-analysis of the deposited data

How the results depend on the processing

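The log2 differences of the 7 secretory genes tested kept their sign under the 10 alternatives, except that Dcpp3 failed the filter of 5 FPKM and had no value there. The genes were picked from this contrast. Both knockout values of each exceeded both control values, so leaving out a library or changing the constant or filter could not change the sign. Their size did depend on the constant added: that of Dcpp1 was 5.98 with 0.1 and 3.02 with 5. Leaving out 1 library gave 2437 to 3691 genes called higher and 2808 to 4455 called lower, against 3628 and 4073 with all 4. It gave 6 to 11 of the further saliva genes higher and 1 to 2 lower, 7 to 8 acinar genes lower, 1 to 2 duct markers higher and 1 to 3 lower, and 0 to 1 myoepithelial markers higher. It gave 8 to 10 B and plasma cell markers higher and 0 to 1 lower, 1 to 5 skeletal muscle markers higher, 0 to 1 markers of other exocrine glands higher, and 0 to 2 squamous markers higher and 8 to 11 lower. With a filter of 5 FPKM, which leaves fewer genes tested, 1 further saliva gene was lower, 1 duct marker higher and 3 B and plasma cell markers higher. With no filter 1 further saliva gene was lower and 2 squamous markers were higher. With quantile normalization 1 further saliva gene was lower, 1 duct marker higher and 0 B and plasma cell markers lower. With a pseudocount of 5, 2 skeletal muscle markers were higher. Of single genes, Klk1 ranged from -0.0793 without knockout library 1 to 2.20 without library 2, and the muscle gene Atp2a1 from -0.0441 without library 2 to 0.34 without library 1; the cause was not tested. No paired analysis was possible because both control columns carry the same name and so no replicate number. With 2 libraries a group and unknown depth, low levels such as those of Dcpp2 and Aqp5 cannot be given an error.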

Other observations

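The pancreatic transcripts of control library a came from many genes, noted after their values were seen. The chymotrypsinogen gene Ctrb1 stood at 137 FPKM there and at 0.282 in control library b, and at 0.0960 and 0.672 in knockout libraries 1 and 2. The elastase gene Cela2a stood at 129 FPKM in control library a and at 0.509 to 0.682 in the other 3 libraries. The lipase cofactor gene Clps was at 77.4 FPKM in control library a and listed at 0 in the others. None of these 13 enzyme genes was tested, since each was above 1 FPKM in 1 library only. The pancreatic and the salivary transcripts were thus high in different libraries. Glycam1, a secreted mucin-like gene of lymph node vessels and the mammary gland, was at 2.69 and 4.92 FPKM in control, against 6.16 and 18.4 in knockout (log2 difference 1.33, limma adjusted p = 0.0731), lower in knockout library 1 than in library 2.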
